A study of Mus musculus with 10 samples.

Results

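Laminins and integrins were followed in bulk RNA sequencing of whole mouse embryonic pancreas from the Fgf9-LacZ line, kept on a C57BL/6J background. The genes were all rows of the deposited count table whose symbol named a laminin alpha, beta or gamma chain, or started with Itga or Itgb and a digit, together with Itgad, Itgae, Itgal, Itgam, Itgav and Itgax. This gave 41 of 54532 genes, made up of 11 laminin chains, 26 integrin subunits and 4 genes that share the integrin prefix without being classical subunits (Itgb1bp1, Itgb1bp2, Itgb3bp and Itgb2l). A filter on low counts left 39 of the 41 for testing.

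The tested embryos were labelled Fgf9 -/-, and their controls were littermates labelled as Fgf9 +/+ and +/- mixed, so heterozygous tissue is part of every control pool. The mutant allele of this line carries a LacZ cassette in the Fgf9 locus, which the submitters describe as a functional knockout, and each library came from a pool of dissected pancreata. At embryonic day 13.5 there were 2 null-labelled pools of 7 and 6 pancreata and 3 control pools of 12, 7 and 12. At embryonic day 14.5 there were 2 null-labelled pools of 4 and 3 pancreata and 3 control pools of 8, 7 and 6. Whether the pools came from different litters is not labelled, and the p-values therefore describe pool-to-pool spread only.

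Laminins are large secreted trimers of one alpha, one beta and one gamma chain that polymerise into the sheet of the basement membrane. Integrins are receptors made of one alpha and one beta subunit that span the plasma membrane, bind laminin, collagen or other matrix proteins outside the cell and connect them to the actin cytoskeleton inside. In the embryonic pancreas a laminin-rich basement membrane separates the branching epithelium from the surrounding mesenchyme and also surrounds vessels and nerves. Fgf9 encodes a secreted fibroblast growth factor.

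Total counts ran from 17736769 to 22798257 per library, and the 41 genes took 0.282 to 0.347 percent of them. Levels are given as CPM, counts scaled to library size with TMM factors, within a gene, and as TPM, which divides by exon length, between genes. The pancreatic transcription factor gene Pdx1 was at 50.2 to 85.9 CPM over the 10 libraries. Fgf9 itself was at 5.57 and 7.66 CPM in E13.5 null-labelled pools against 18.4, 11.3 and 16.2 CPM in controls, and at 11.7 and 6.14 CPM in E14.5 null-labelled pools against 13.6, 8.76 and 6.96 CPM in controls. The insertion need not remove the transcript, and the E14.5 groups overlapped, so the libraries are called null-labelled. On the first principal component of all genes, with 25.7 percent of the variance, E14.5 null-labelled pool 1 lay at -11.4 and E14.5 control 1 at -5.82, against 54.2 for null-labelled pool 2 and 56.6 and 58 for the other two controls. E14.5 pools numbered 1 thus stood apart from the rest of their stage in both genotypes. In pooled whole tissue, fewer cells of a type and less RNA per cell cannot be told apart.

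Most laminin transcript of the pancreas belonged to the chains of laminins containing beta 1 and gamma 1. Lamc1, the common gamma chain, averaged 190 TPM over the 10 libraries (range 149 to 283), and Lamb1, the matching beta chain, averaged 132 TPM (range 105 to 185). Lama5, the alpha chain of many epithelial basement membranes, averaged 58.6 TPM (range 45.4 to 82.8). Lamb2 averaged 40.2 TPM and Lama4, the alpha chain typical of vessels, 26.5 TPM. Lama1, the alpha chain of the earliest embryonic basement membranes, averaged 14.6 TPM with a wide range of 5.4 to 25.5. Lama3 and Lamb3, chains of the laminin that anchors stratified epithelia, averaged 1.27 and 2.8 TPM. Lamc3 averaged 2.14 TPM.

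Among the integrins the beta 1 subunit, the partner of most alpha subunits, dominated. Itgb1 averaged 479 TPM (range 349 to 602) and made up 81.1 to 86.1 percent of the summed TPM of the 8 beta subunits in every library. Itgb5 averaged 69 TPM and Itgb4, which pairs with alpha 6 in hemidesmosomes, 11.8 TPM. Itgb3, Itgb2, Itgb8, Itgb6 and Itgb7 averaged 2.04 to 5.9 TPM. Itga6, a laminin receptor subunit of epithelia and vessels, led the alpha subunits at 105 TPM (range 72.7 to 155). It was followed by Itga5, the fibronectin receptor subunit, at 54.3 TPM, by the laminin receptor subunit Itga3 at 25.5 TPM and by Itgav, which binds ligands with an RGD sequence, at 19.2 TPM. Itga9 averaged 18.2 TPM and Itga8 10.2 TPM. The collagen receptor subunits Itga11, Itga2, Itga1 and Itga10 averaged 7.58, 6.83, 3.51 and 1.02 TPM. Itga7 averaged 2.38 TPM, and the leukocyte subunits Itgal, Itgae and Itgam averaged 3.25, 1.52 and 0.585 TPM. Itgax had at most 10 reads in a library, and Itgad had 2 reads in E14.5 null-labelled pool 1 and none in the others, so these 2 were not tested.

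**Figure D1:**
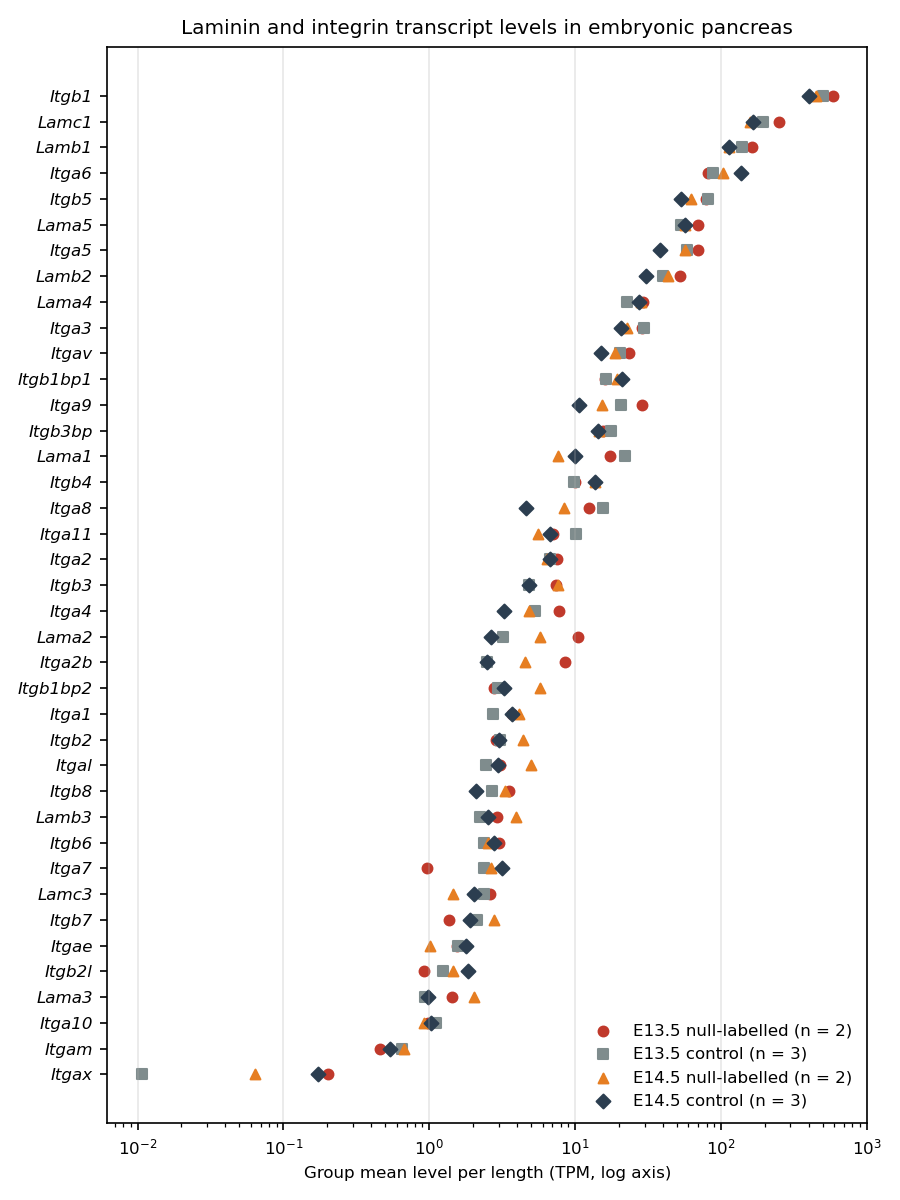
Level per length of members with a mean above 0.05 TPM, on a log axis in TPM, as the mean of each group (2 null-labelled or 3 control pools). Itgb1, Lamc1, Lamb1 and Itga6 lie at the top, and Lama2 and Itga2b show null-labelled means to the right of both control means.

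The make-up of the laminin alpha chains varied between libraries. Lama5 held 48.3 to 62.7 percent of the summed alpha chain TPM and Lama4 19.7 to 30.3 percent. The share of Lama2, the alpha chain of muscle and peripheral nerve basement membranes, was 9.87 and 6.88 percent in E13.5 null-labelled pools against 3.82, 3.8 and 1.83 percent in controls. At E14.5 it was 7.33 and 4.04 percent in null-labelled pools against 3.36, 2.42 and 2.13 percent in controls. The genotypes did not overlap at either stage. The share of Lama1 was 13.5 and 13.6 percent in E13.5 null-labelled pools against 23.2, 19.7 and 21 percent in controls, without overlap, and 9.37 and 5.61 percent in E14.5 null-labelled pools against 13.7, 6.77 and 9.18 percent in controls, with overlap. Lama3 stayed between 0.551 and 2.19 percent. These shares are descriptions, and with 2 pools against 3 at a stage an exact test of a share alone could not pass 0.05. Lamc1 made up 92.6 to 95 percent of the gamma chains and Lamb1 65.9 to 83 percent of the beta chains.

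**Figure D2:**
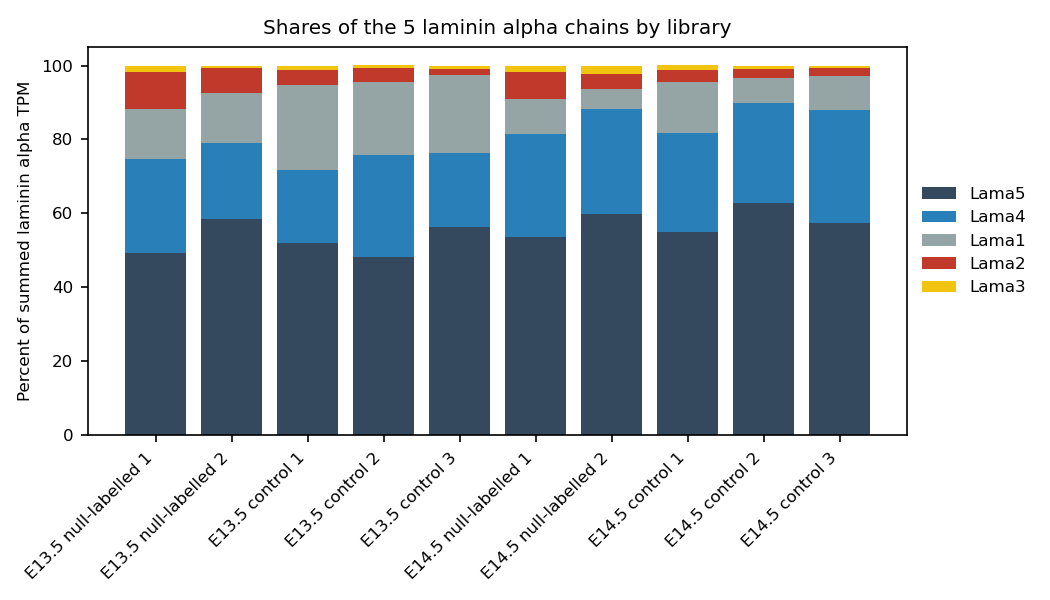
Percent of the summed laminin alpha chain TPM held by each of the 5 chains, 1 bar per library. The red Lama2 segment is 4.04 to 9.87 percent in the 4 null-labelled pools and 1.83 to 3.82 percent in the 6 controls.

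The series compares null-labelled with control pancreas at each stage, and here the members were tested with edgeR's quasi-likelihood test, with p-values adjusted over all 18898 genes. Lama2 and Itga2b were the members that rose in null-labelled pancreas. At E13.5 Itga2b was the 1 of 39 members called, as higher, against 0.307 percent of all genes tested (0.132 percent higher and 0.175 percent lower). DESeq2 called 3 at E13.5 (Itga2b and Lama2 higher, Itga7 lower), against 1.26 percent of all genes. At E14.5 none of the 39 was called by edgeR, against 0.111 percent of all genes (0.0794 percent higher and 0.0317 percent lower). At an unadjusted p under 0.05 edgeR gave 10 higher and 0 lower of the 39 there, against 1099 higher and 515 lower of all 18898 genes. DESeq2 called 1 at E14.5, Lama2, against 1.64 percent of all genes. Averaged over both stages edgeR called 2 of 39, both higher, against 1.87 percent of all genes (1.46 percent higher and 0.418 percent lower). DESeq2 called 5 over both stages (Itga2b, Lama2, Itga4 and Itgb3 higher, Itga7 lower), against 3.86 percent of all genes. The median log2 fold change of the 39 was 0.11 in this average, against -0.02 over all genes. The first 250 bases before and 50 after the RefSeq start of these 2 genes are shown because both rose and their promoters can be set side by side. The gene spans given below start further upstream than these RefSeq starts. They hold the whole Lama2 window and nearly the whole Itga2b window. Capitals mark the letters AGGAAG, the core of many ETS factor sites, on either strand (CTTCCT where it is on the other strand).

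Itga2b promoter, GRCm38.p6, chr11:102469834-102470133, minus strand: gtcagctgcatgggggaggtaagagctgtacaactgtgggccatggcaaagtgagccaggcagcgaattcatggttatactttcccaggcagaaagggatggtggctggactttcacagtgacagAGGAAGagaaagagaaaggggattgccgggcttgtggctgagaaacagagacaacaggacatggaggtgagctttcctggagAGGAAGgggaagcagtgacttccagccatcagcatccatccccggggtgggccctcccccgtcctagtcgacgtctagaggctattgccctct

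Lama2 promoter, GRCm38.p6, chr10:27616893-27617192, minus strand: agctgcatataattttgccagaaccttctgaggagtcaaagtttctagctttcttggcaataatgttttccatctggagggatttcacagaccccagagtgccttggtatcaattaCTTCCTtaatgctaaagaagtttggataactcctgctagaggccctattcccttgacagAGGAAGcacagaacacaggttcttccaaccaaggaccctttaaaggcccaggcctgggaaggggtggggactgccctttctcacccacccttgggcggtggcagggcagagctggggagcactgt

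AGGAAG occurred 2 times in each window. It also occurred on either strand in 35.4 percent of 32851 promoter windows of that length. GATAAG and TATAAA occurred in neither window, against 7.44 and 13.6 percent of all windows. GGGCGG occurred in the Lama2 window once, against 35.7 percent of all windows. Both strands were searched for all 4 motifs, and within these 2 windows no match overlapped another. The table held promoters for 26 of the 41 members.

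Lama2 (ENSMUSG00000019899, GRCm38 chromosome 10, 26980036 to 27619758, minus strand, protein coding) encodes laminin alpha 2. It was at 56.9 and 47.5 CPM in E13.5 null-labelled pools against 20.6, 19 and 9.74 CPM in controls. At E14.5 it was at 43.5 and 23.8 CPM in null-labelled pools against 21.1, 15.5 and 11.3 CPM in controls. The means were 52.2 ± 6.6 CPM in E13.5 null-labelled pools and 16.4 ± 5.9 CPM in controls (SD, n = 2 and 3). All 4 null-labelled pools lay above the 3 controls of their stage, although E14.5 pool 2 exceeded the highest control by little. Over both stages the log2 fold change was 1.37 (SE 0.23, edgeR adjusted p = 0.011), or 2.58-fold. At E13.5 alone it was 1.66 (SE 0.33, edgeR adjusted p = 0.068) and at E14.5 alone 1.08 (SE 0.33, edgeR adjusted p = 0.29). With the replicate number as a block both passed, at 1.39 (edgeR adjusted p = 4.3e-05) and 0.84 (edgeR adjusted p = 0.0057). Without both null-labelled pools numbered 1 the value over both stages was 1.05 and did not pass (edgeR adjusted p = 0.13). An antisense gene, Gm48084, covers 3.86 percent of the Lama2 exon bases, and, with the strand setting unknown, reads of both genes may not be told apart.

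Muscle transcripts, among others, moved with the same pools. The 10 smooth muscle marker genes summed to 312 and 256 CPM in E13.5 null-labelled pools against 176 to 196 CPM in controls, and to 596 and 316 CPM in E14.5 null-labelled pools against 167 to 231 CPM in controls. The 10 skeletal muscle markers summed to 96.3 and 34.2 CPM in E13.5 null-labelled pools against 21.9 to 34.1 CPM in controls, and to 327 and 42.4 CPM in E14.5 null-labelled pools against 25.5 to 42.2 CPM in controls. Averaged over stages, 4 of 10 smooth muscle and 3 of 10 skeletal muscle markers were called, all higher, against 1.46 percent of all genes called higher. Also called higher were 5 of 8 liver, 3 of 9 neural crest and glia, 2 of 12 macrophage and leukocyte and 1 of 10 endothelial markers. None of 10 epithelial or 9 platelet markers was called, and 1 of 7 mesothelial markers was higher and 1 lower. All 4 spleen mesenchyme markers were lower, against 0.418 percent of all genes called lower. None of the muscle markers was at 0 in all libraries. Without both null-labelled pools numbered 1, skeletal muscle had 0 called higher and 1 lower, and smooth muscle 2 higher. In both pools numbered 2 the skeletal muscle sum was close to the highest control, and the smooth muscle sum was above all controls. The part of muscle or other cells in the Lama2 result was not tested.

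Itga2b (ENSMUSG00000034664, GRCm38 chromosome 11, 102453297 to 102470122, minus strand, protein coding) encodes the alpha subunit of the fibrinogen receptor of platelets, which is also present on early blood progenitors. It was at 11.3 and 16.9 CPM in E13.5 null-labelled pools against 4.98, 4.62 and 3.13 CPM in controls. At E14.5 it was at 7.48 and 10.5 CPM in null-labelled pools against 5.57, 4.67 and 4.79 CPM in controls. The means were 14.1 ± 3.9 CPM in E13.5 null-labelled pools and 4.24 ± 0.98 CPM in controls (SD, n = 2 and 3). The 4 null-labelled pools were above every control of either stage. The log2 fold change was 1.73 at E13.5 (SE 0.28, edgeR adjusted p = 0.027), 0.84 at E14.5 (SE 0.28, edgeR adjusted p = 0.36) and 1.29 over both stages (SE 0.2, edgeR adjusted p = 0.0068), or 2.44-fold. The E13.5 call was lost without any 1 of the 5 E13.5 libraries, with log2 fold changes from 1.41 to 1.99 and edgeR adjusted p from 0.063 to 0.32. The call over both stages held under each of the 16 alternatives run, with edgeR or DESeq2 adjusted p from 5.6e-07 to 0.04.

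Other platelet genes were measured at low levels. The 10 platelet and megakaryocyte markers summed to 21.7 and 24 CPM in E13.5 null-labelled pools against 13.9 to 19.5 CPM in controls, and to 25.3 and 21.9 CPM in E14.5 null-labelled pools against 14.9 to 18.1 CPM in controls. None of the 9 tested passed over both stages in edgeR, with 2 higher and 0 lower at an unadjusted p under 0.05, and DESeq2 called 1 higher both there and at E13.5. All 9 had a positive log2 fold change over both stages, with a median of 0.58. The abundant platelet chemokine gene Pf4 was at 11.8 and 12.9 CPM in E13.5 null-labelled pools against 12.8, 12 and 9.69 CPM in controls, overlapping them. Gp9, a subunit of the platelet von Willebrand factor receptor, was at 0.91 and 2.37 CPM in E13.5 null-labelled pools against 0.14, 0.238 and 0.199 CPM in controls, without overlap. Its E13.5 log2 fold change of 3.06 was larger than that of Itga2b but less precise (SE 0.71, edgeR adjusted p = 0.12). Gp1bb was at 0 in every library. The part of platelets or their precursors in the Itga2b result was not tested.

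Beyond these 2 genes, 6 further members had all null-labelled pools above all controls at both stages. In total 8 of 38 members with a mean of at least 1 CPM did so, or 21.1 percent, against 4.68 percent of all genes at that level. None of the 38 lay below the controls in this way, against 2.37 percent of all genes. The 8 were Lama2, Itga2b, its partner subunit Itgb3, Itga4, Itgb8, Itga5, Itgav and Itgb1. Itga5, Itgav, Itga2b and Itga8 are the alpha subunits that bind RGD ligands, and 3 of these 4 are among the 8.

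Itgb3, which pairs with Itga2b and Itgav, was at 13.7 and 12.8 CPM in E13.5 null-labelled pools against 8.94, 10.003 and 7.85 CPM in controls. At E14.5 it was at 19 and 13.1 CPM in null-labelled pools against 11.3, 12.1 and 8.46 CPM in controls. Its log2 fold change over both stages was 0.58 (SE 0.16, edgeR adjusted p = 0.1). Itga4, a receptor subunit for VCAM1 and fibronectin, was at 37.2 and 28.9 CPM in E13.5 null-labelled pools against 25.3, 23.8 and 20.5 CPM in controls, and at 24.0 and 24.8 CPM in E14.5 null-labelled pools against 21.97, 13.4 and 14.8 CPM in controls. It had 0.53 over both stages (SE 0.15, edgeR adjusted p = 0.11) and passed with the replicate number as a block (0.46, edgeR adjusted p = 0.043). For both genes the nearest control was close to the lower null-labelled pool at E14.5.

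Itga5 was at 102 and 106 CPM in E13.5 null-labelled pools against 92.4, 82.9 and 95.9 CPM in controls, and at 117 and 84.1 CPM in E14.5 null-labelled pools against 82.6, 65.8 and 60.3 CPM in controls. Its log2 fold change was 0.37 over both stages (SE 0.12, edgeR adjusted p = 0.18). Blocking on the replicate number, it passed over both stages (0.34, edgeR adjusted p = 0.0098) and at E14.5 (0.43, edgeR adjusted p = 0.038). Itgb8, which pairs with Itgav and activates latent TGF-beta, was at 11.8 and 12.0 CPM in E13.5 null-labelled pools against 10.7, 7.72 and 9.59 CPM in controls, and at 14.01 and 12.2 CPM in E14.5 null-labelled pools against 9.78, 7.67 and 8.18 CPM in controls. It had 0.48 over both stages (SE 0.15, edgeR adjusted p = 0.16).

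Itgav and Itgb1 had the smallest log2 fold changes of the 8 over both stages. Itgav was at 80.5 and 73.7 CPM in E13.5 null-labelled pools against 71.1, 68.3 and 65.9 CPM in controls, and at 77.8 and 67.5 CPM in E14.5 null-labelled pools against 61.4, 62.1 and 59.4 CPM in controls. Itgb1 was at 756 and 691 CPM in E13.5 null-labelled pools against 632, 682 and 618 CPM in controls, and at 655 and 674 CPM in E14.5 null-labelled pools against 595, 588 and 651 CPM in controls. The log2 fold changes over both stages were 0.21 for Itgav (SE 0.08, edgeR adjusted p = 0.3) and 0.14 for Itgb1 (SE 0.08, edgeR adjusted p = 0.55).

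**Figure D3:**
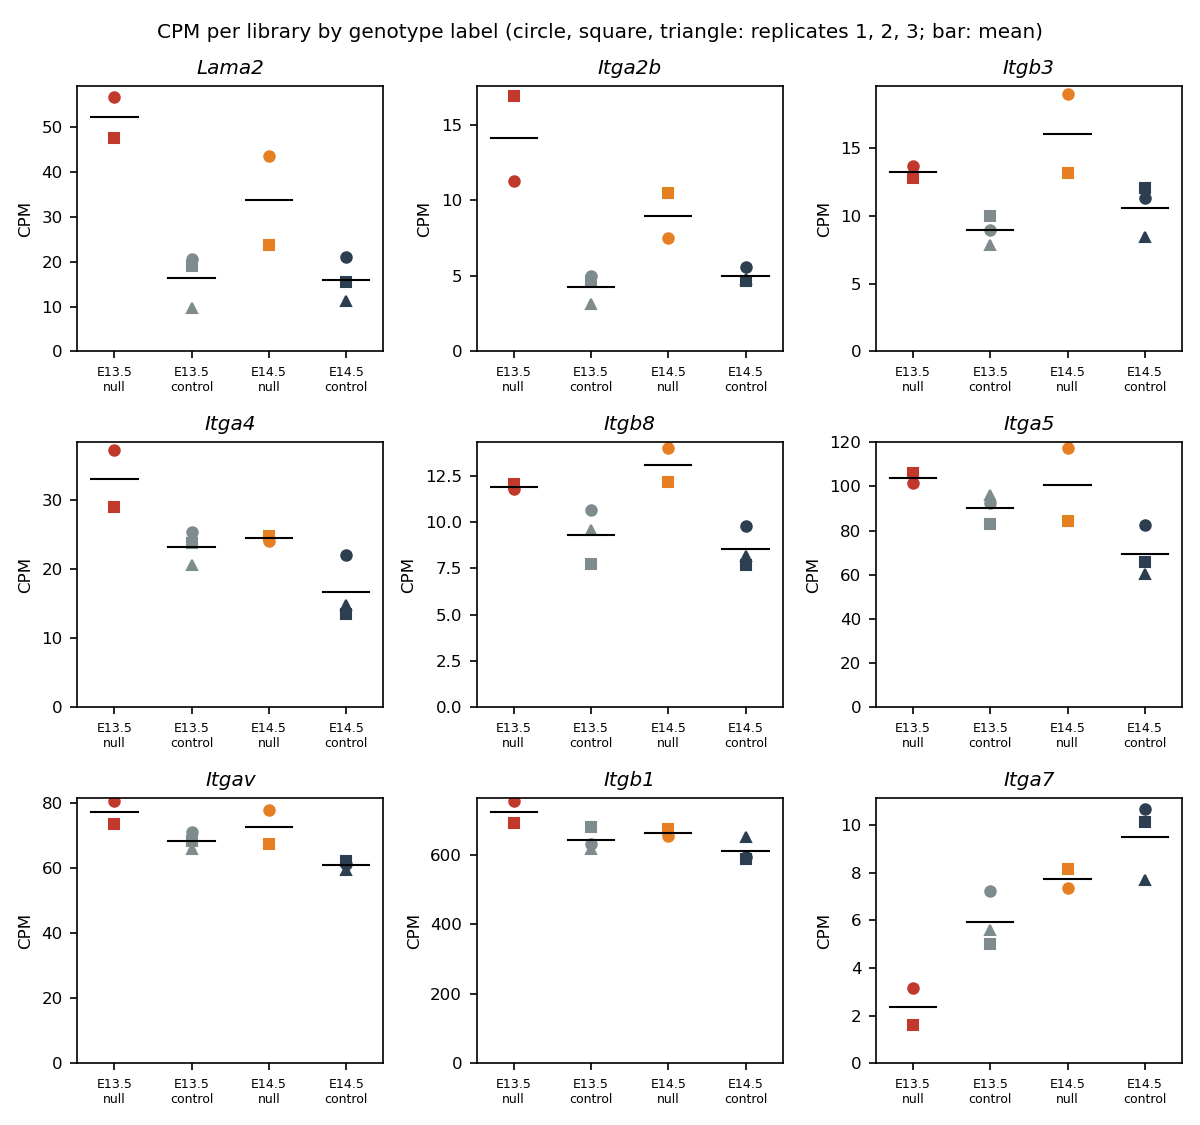
CPM of 9 members in each library, by stage and genotype label, with circles, squares and triangles for pools 1, 2 and 3 and a bar at the group mean. In the first 8 panels every null-labelled pool lies above all controls of its stage, and in the Itga7 panel both E13.5 null-labelled pools lie below all controls.

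Itga7, a laminin receptor subunit of muscle, differed the other way. It was at 3.16 and 1.59 CPM in E13.5 null-labelled pools against 7.22, 5.0 and 5.62 CPM in controls, without overlap. At E14.5 it was at 7.37 and 8.14 CPM in null-labelled pools against 10.7, 10.1 and 7.68 CPM in controls, with overlap. The log2 fold change was -1.33 at E13.5 (SE 0.33, edgeR adjusted p = 0.16), and it passed there with the replicate number as a block (-1.41, edgeR adjusted p = 0.011). Over both stages it was -0.81 (SE 0.22, edgeR adjusted p = 0.11) and passed with the block (-0.92, edgeR adjusted p = 0.0075). The smooth and skeletal muscle sums given above were not lower in those null-labelled pools, and the part of these cells in the Itga7 values was not tested.

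In that block the controls numbered 3 have no null-labelled partner, so they add nothing to the blocked genotype differences. The labels do not state the pairing that the block assumes. With the block 3 of 39 members passed at E13.5, against 3 percent of all genes, and 2 passed at E14.5, against 2.46 percent. Over both stages 10 of 39 passed, against 5.83 percent of all genes. Of these, 6 were higher, namely Lama2, Itga2b, Itga9, Itga5, Itga4 and Lamb2, and 4 were lower, namely Itga7, Itga11, Lama1 and Itga6. Itga9, which binds tenascin C and other ligands, was at 76.5 and 58.2 CPM in E13.5 null-labelled pools against 56, 44.4 and 47.9 CPM in controls, and at 50.6 and 33.6 CPM in E14.5 null-labelled pools against 37, 26.6 and 27.6 CPM in controls, with overlap at E14.5. It had 0.46 without the block (edgeR adjusted p = 0.17) and 0.41 with it (edgeR adjusted p = 0.0058). Lamb2, the beta chain of muscle and vessel laminins, was at 106 and 86.7 CPM in E13.5 null-labelled pools against 93.9, 66.1 and 66.9 CPM in controls, and at 122 and 65.7 CPM in E14.5 null-labelled pools against 97.2, 58.6 and 47.2 CPM in controls. The groups overlapped at both stages, and Lamb2 had 0.41 without the block and 0.27 with it (edgeR adjusted p = 0.049). The collagen receptor subunit Itga11 was at 13.3 and 8.65 CPM in E13.5 null-labelled pools against 19.7, 16.5 and 12.5 CPM in controls, and at 13.6 and 6.84 CPM in E14.5 null-labelled pools against 17.8, 12.9 and 7.13 CPM in controls. These groups also overlapped at both stages, and Itga11 had -0.44 without the block and -0.69 with it (edgeR adjusted p = 0.008). Lama1 had -0.4 without the block and -0.44 with it (edgeR adjusted p = 0.015), and Itga6 -0.32 without and -0.26 with it (edgeR adjusted p = 0.049).

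The other laminins showed no call with or without the block. At E13.5 10 of the 11 laminin chains had a positive log2 fold change, with a median of 0.33 against -0.01 over all genes, and at E14.5 5 of 11 were positive, with a median of -0.01 against -0.02. Lamc1 was at 566 and 700 CPM in E13.5 null-labelled pools against 458, 520 and 530 CPM in controls, with a log2 fold change of 0.33 (SE 0.13, edgeR adjusted p = 0.6). Lama5 was at 198 and 282 CPM in E13.5 null-labelled pools against 196, 168 and 209 CPM in controls, with overlap. Lama4 was at 109 and 104 CPM in E13.5 null-labelled pools against 78.5, 102 and 79.3 CPM in controls, and its E13.5 log2 fold change was 0.3 (SE 0.13, edgeR adjusted p = 0.72). The 10 endothelial markers summed to 721 and 660 CPM in E13.5 null-labelled pools against 495 to 549 CPM in controls. At E14.5 they summed to 660.5 and 576 CPM in null-labelled pools against 515 to 556 CPM in controls. Lama4 had a log2 fold change of -0.01 there (SE 0.13, edgeR adjusted p = 0.99). The part of endothelial cells in the Lama4 values was not tested. Lama3, Lamb3 and Lamc3 had log2 fold changes between -0.56 and 1.01 at the 2 stages. The collagen receptor subunits Itga1, Itga2 and Itga10 ranged from -0.24 to 0.41.

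**Figure D4:**
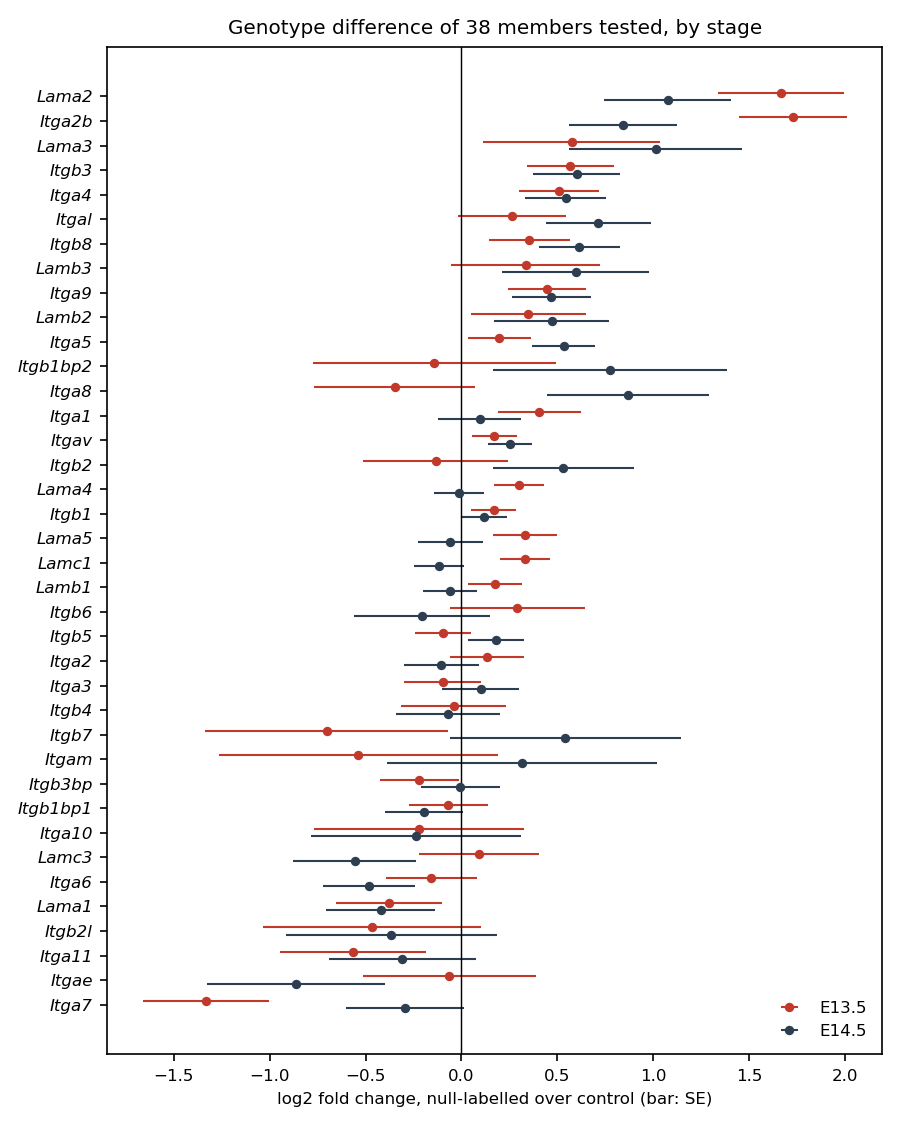
log2 fold change of null-labelled over control pools for 38 of the 39 members tested, with SE bars, at E13.5 (red) and E14.5 (dark blue), ordered by the average of both. Lama2 and Itga2b stand at the top of the average, Lama3 and Itga8 lie above Itga2b at E14.5, and Itga7 is lowest at E13.5.

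Whether a genotype difference changed between stages was tested directly as an interaction. No member passed in edgeR, where 0 percent of all genes passed, none in DESeq2, against 0.00899 percent of all genes, and none with the block, against 0.0688 percent. At an unadjusted p under 0.05 there were 1 higher and 2 lower, against 229 higher and 225 lower of all 18898 genes. These were Itga7 with a difference of 1.04, Itga2b with -0.89 and Lamc1 with -0.45 on the log2 scale. Itga8, an RGD-binding subunit of mesenchyme, had a log2 fold change of 0.87 at E14.5 and -0.35 at E13.5 (difference 1.22, SE 0.6, edgeR adjusted p = 1). This Itga8 difference passed without a filter on low counts, but there the prior degrees of freedom became infinite, against 6.31. Between same-numbered pools at E14.5 the log2 difference of Itga8 was -0.12 for number 1 and 1.49 for number 2.

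Development between the 2 days was compared within each genotype. In controls none of the 39 members passed in edgeR, against 1.12 percent of all genes (0.778 percent higher and 0.339 percent lower). There were 7 higher and 6 lower at an unadjusted p under 0.05, against 1569 higher and 1366 lower of all 18898 genes. DESeq2 called 8 members, against 5.8 percent of all genes. In null-labelled pools none passed in edgeR either, against 0.249 percent of all genes (0.201 percent higher and 0.0476 percent lower). There were 5 higher and 3 lower at an unadjusted p under 0.05, against 1430 higher and 1172 lower of all 18898 genes, a share near that of all genes. DESeq2 called 2 members (Itga7 higher and Lama1 lower), against 3.43 percent of all genes. A fit blocked on the replicate number called 8 in controls and 5 in null-labelled pools, against 7.34 and 4.74 percent of all genes, although the number was not found to pair samples between stages. The number of members called in controls changed when 1 library was left out. Without E14.5 control 1 edgeR called 9 members, namely Itga1, Itga6, Itgb1bp1, Itgb4 and Lama4 as higher at E14.5 and Itga4, Itga8, Itga9 and Lama1 as lower. This count is not set beside the share of all genes called in that setting, so it is not a result about the members as a set. E14.5 control 1 lay between the E13.5 and the other E14.5 controls on the first principal component.

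Itga6 was at 327, 579 and 506 CPM in E14.5 controls against 204, 288 and 260 CPM in E13.5 controls, without overlap, and at 273 and 401 CPM in E14.5 null-labelled pools against 202 and 248 CPM at E13.5. The log2 fold change was 0.91 in controls (SE 0.21, edgeR adjusted p = 0.06) and 0.58 in null-labelled pools (SE 0.26, edgeR adjusted p = 0.35). Itgb4, its partner in epithelia, was at 28, 43.5 and 38.2 CPM in E14.5 controls against 17.1, 21.3 and 26.8 CPM in E13.5 controls, with a log2 fold change of 0.75 (SE 0.24, edgeR adjusted p = 0.15). Epithelial markers moved with them. The 10 markers summed to 4235, 7673 and 6857 CPM in E14.5 controls against 2418, 3687 and 3893 CPM in E13.5 controls, lowest in pool 1 at both stages as was Itga6, and their part in these values was not tested.

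Lama4 was at 124, 128 and 119 CPM in E14.5 controls against 78.5, 102 and 79.3 CPM in E13.5 controls, with a log2 fold change of 0.51 (SE 0.12, edgeR adjusted p = 0.056). In null-labelled pools it was at 122 and 123 CPM at E14.5 against 109 and 104 CPM at E13.5, with 0.2 (SE 0.14, edgeR adjusted p = 0.59). Itga1, a collagen receptor subunit of stroma and vessels, was at 23.3, 26.4 and 28.3 CPM in E14.5 controls against 19.5, 14.9 and 13.1 CPM in E13.5 controls, with a log2 fold change of 0.71 (SE 0.2, edgeR adjusted p = 0.093). In both genes the control stages did not overlap. The summed endothelial markers did overlap, at 515 to 556 CPM in E14.5 controls against 495 to 549 CPM in E13.5 controls. The part of vessels in the Lama4 and Itga1 values was not tested.

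Lama1, Itga8 and Itga9 had negative log2 fold changes between the days in both genotypes, although that of Itga8 in null-labelled pools turned positive without E13.5 null-labelled pool 1. Lama1 was at 51.0, 25.6 and 28.8 CPM in E14.5 controls against 74.3, 58.4 and 66.2 CPM in E13.5 controls, and at 33.0 and 19.6 CPM in E14.5 null-labelled pools against 46.2 and 55.8 CPM at E13.5. Its log2 fold change was -0.91 in controls (SE 0.25, edgeR adjusted p = 0.09) and -0.96 in null-labelled pools (SE 0.31, edgeR adjusted p = 0.2), with no overlap of the stages in either genotype. Itga8 was at 20.6, 9.28 and 6.96 CPM in E14.5 controls against 47.2, 26.5 and 32.4 CPM in E13.5 controls, a log2 fold change of -1.52 (SE 0.39, edgeR adjusted p = 0.074). In null-labelled pools Itga8 was at 18.9 and 26.0 CPM at E14.5 against 38 and 17.7 CPM at E13.5, and the stages overlapped. Itga9 had -0.7 in controls (SE 0.19, edgeR adjusted p = 0.083) and -0.68 in null-labelled pools (SE 0.22, edgeR adjusted p = 0.21). Itga7 had 1.72 in null-labelled pools (SE 0.35, edgeR adjusted p = 0.073) and 0.68 in controls (SE 0.27, edgeR adjusted p = 0.25).

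**Figure D5:**
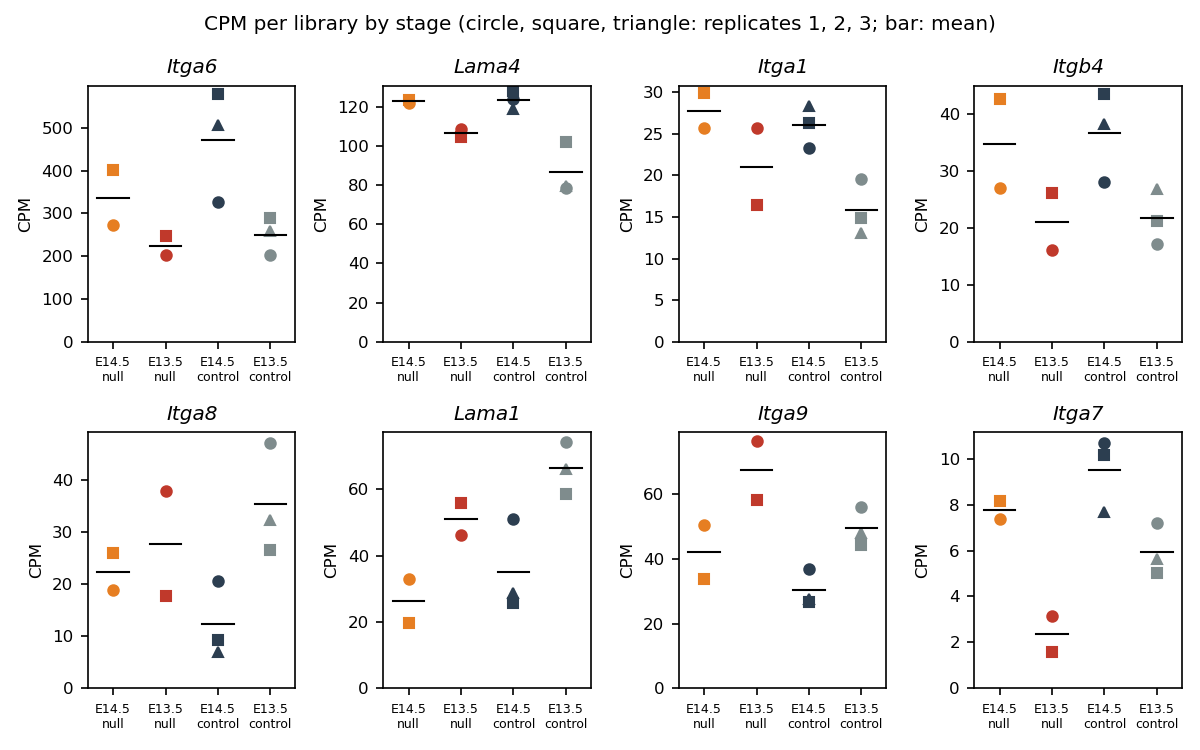
CPM of 8 members in each library, E14.5 beside E13.5 within null-labelled pools and within controls, with circles, squares and triangles for pools 1, 2 and 3 and a bar at the group mean. In controls Itga6, Lama4 and Itga1 lie higher at E14.5 without overlap, and Itga8, Lama1 and Itga9 lie lower.

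The 4 genes that share the integrin prefix were not called by edgeR in any comparison. Itgb1bp1, which encodes a binding partner of the beta 1 tail, averaged 18.3 TPM. It was at 19.9, 34.3 and 30.4 CPM in E14.5 controls against 17.4, 18.8 and 18.4 CPM in E13.5 controls, with a log2 fold change of 0.63 (SE 0.18, edgeR adjusted p = 0.11). Itgb3bp, a centromere protein gene, Itgb1bp2, which encodes the muscle protein melusin, and Itgb2l had genotype log2 fold changes between -0.47 and 0.78. The leukocyte subunits Itgal, Itgam and Itgae and the beta subunit Itgb2 were not called by edgeR in any comparison either. Itgal was at 9.77 and 14.03 CPM in E14.5 null-labelled pools against 8.18, 6.75 and 6.85 CPM in controls, without overlap. In the same pools 12 macrophage and leukocyte markers summed to 470 and 335 CPM in E14.5 null-labelled pools against 238 to 332 CPM in controls, and their part in the Itgal value was not tested.

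Genes that act with laminins and integrins were counted by list, with Nid1 in the first 2 lists and the member Itgb1bp1 in the last. Of 22 other basement membrane genes, 2 rose over both stages and none fell, against 1.46 percent higher and 0.418 percent lower of all genes. Their median log2 fold change was 0.05, against -0.02 over all genes. The 2 that rose were the collagen IV chains Col4a6 and Col4a5. Col4a6 was at 124 and 90.4 CPM in E13.5 null-labelled pools against 38.6, 29.8 and 27 CPM in controls, and at 122 and 70.4 CPM in E14.5 null-labelled pools against 39.9, 25.1 and 22 CPM in controls. Its log2 fold change was 1.74 over both stages (SE 0.19, edgeR adjusted p = 0.0011), and that of Col4a5 was 0.93 (SE 0.14, edgeR adjusted p = 0.0069). At E13.5 Smoc2, a secreted calcium-binding matrix protein gene, fell (log2 fold change -1.11, edgeR adjusted p = 0.027). Without both null-labelled pools numbered 1 the list had 1 higher and 1 lower over both stages. With the replicate number as a block 5 basement membrane genes were higher and 2 lower over both stages, against 5.83 percent of all genes called in either direction.

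Of 20 other integrin ligand genes, 5 rose and 2 fell over both stages, against 1.46 percent higher and 0.418 percent lower of all genes. Their median log2 fold change was 0.2, against -0.02 over all genes. The genes that rose included Ctgf (1.14, edgeR adjusted p = 0.0043), Postn (0.69, edgeR adjusted p = 0.0091) and Cyr61 (0.79, edgeR adjusted p = 0.0092), all of which encode secreted matrix-associated integrin ligands. Tgfbi, another such ligand, fell (-1.11, edgeR adjusted p = 0.0097). The fibronectin gene Fn1, whose product is the ligand of alpha 5 beta 1, was at 685 and 495 CPM in E13.5 null-labelled pools against 259, 209 and 183 CPM in controls, and at 603 and 331 CPM in E14.5 null-labelled pools against 398, 244 and 148 CPM in controls. It was also among the genes that rose (1.14, SE 0.24, edgeR adjusted p = 0.035), although its E14.5 groups overlapped. Without both null-labelled pools numbered 1 no ligand gene was called higher over both stages and 1 was called lower.

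Of 26 adaptor and signalling genes on the inner side of integrins, 1 rose over both stages, against 1.46 percent of all genes called higher. It was Lims2, which encodes the ILK partner PINCH2 (1.61, SE 0.35, edgeR adjusted p = 0.039). Without both null-labelled pools numbered 1 no gene of the list was called. None fell in the fit of all libraries, with 5 higher and 0 lower at an unadjusted p under 0.05, against 1504 higher and 761 lower of all 18898 genes. DESeq2 called 2 higher and 0 lower, against 3.86 percent of all genes. The median of the 26 was 0.1, against -0.02 over all genes. Between stages in controls Tgfbi fell (-1.68, edgeR adjusted p = 0.012) and Smoc2 fell (-0.77, edgeR adjusted p = 0.043), while Thbs2 (1.02, edgeR adjusted p = 0.026) and Postn (0.75, edgeR adjusted p = 0.039) rose. In null-labelled pools no gene of these 3 lists passed between stages in edgeR. At an unadjusted p under 0.05 there were 1 higher and 2 lower basement membrane genes and 3 higher and 1 lower ligand genes. There were also 2 higher and 0 lower adaptor genes. Over all 18898 genes there were 1430 higher and 1172 lower. DESeq2 called 1 ligand gene higher and no gene of the other 2 lists, against 3.43 percent of all genes.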

How the data were processed

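The deposited table held raw read counts per gene, and its 10 columns were matched to the samples by description. The submitters' processing notes name TopHat, HTSeq and DESeq2 with mm10, and the labels' protocols name poly(A) selection. Their versions and the strand setting were not given in the sources used here. Of the 41 genes, 14 share exon bases with another gene, 4 of them over 10 percent. These are Itgam (68.7 percent), Itga10 (33.5 percent), Itgad (19.7 percent) and Itgb1bp1 (16.9 percent). Itgam shares its bases with Gm49368 and Itga10 with Gm42957, each on the same strand, so reads may not be told apart and their levels are uncertain. The tests used edgeR 4.0.16 under R 4.3.3 (quasi-likelihood F test, TMM normalization, a mean for each of the 4 groups, 6 residual degrees of freedom). The 18898 genes that passed the expression filter held 99.91 percent of the counts, and p-values were adjusted by Benjamini-Hochberg over them with a threshold of 0.05. SE is the size of the log2 fold change divided by the square root of F. TPM used GENCODE M21 exon lengths on GRCm38. The fit was tested on simulated data. No 2 pools of a group were alike within sampling noise (lowest chi-square 11.2 per gene).

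All members may be named. Values in every library are given for members that passed the unblocked edgeR test or whose genotypes did not overlap at both stages. From the pathway lists up to 4 called genes per comparison are named, and Fn1 was named beyond these 4. Among pathway list genes outside the members, values in every library are given only for Col4a6 and Fn1. Further members shown in full by library were chosen after their values were seen. Members and lists were chosen with earlier results of these data known. Cyr61 and Ctgf were matched from newer symbols.

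Same-numbered null-labelled and control pools deviated together, with correlations of 0.36 and 0.14 at E13.5 and 0.35 and 0.16 at E14.5, so the number was taken to pair them. The labels do not give this pairing, and the check cannot establish it. With 2 null-labelled pools at a stage, their deviations from the group mean are mirror images, so their correlations are not independent. Null-labelled pools 2 correlated more with controls 3, at 0.25 and 0.22. Blocking left 2 residual degrees of freedom, and the controls numbered 3, alone in their blocks, did not enter the genotype differences. For stages, correlations among controls were 0.3, 0.039 and 0.16, which did not meet the rule of over 0.1 in every pair. Alternatives were DESeq2 1.42.0, RLE size factors, no filter, only the groups compared, the block, each library left out, and leaving out pools numbered 1. The values of 1 member are not reported here, although it is included in the counts and medians over all members.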

Additional observations from a re-analysis of the deposited data

Results flagged for a closer look

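Lamc1, the common laminin gamma chain, had log2 fold changes of opposite sign at the 2 stages. They were 0.33 at E13.5 (SE 0.13, edgeR adjusted p = 0.6) and -0.12 at E14.5 (SE 0.13, edgeR adjusted p = 0.89), and neither was called. In CPM both null-labelled pools lay above all controls at E13.5 and below all controls at E14.5. At E14.5 they were at 461 and 480 CPM against 541, 508 and 480 CPM, where the nearest pools differed by under 1 CPM. In TPM the E14.5 groups overlapped, at 161 and 154 in null-labelled pools against 196, 149 and 152 in controls. The difference between the stages was -0.448 on the log2 scale (SE 0.18, unadjusted p = 0.0322, edgeR adjusted p = 1), so it did not pass over all genes.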

How the results depend on the processing

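Counts of members called are out of 39 to 41, since each setting tests slightly different genes. Shares of all genes called are given above for the reported edgeR fit, DESeq2 and the replicate block only. Counts under the other settings are not set beside all genes, so they describe the members alone. In the order E13.5 genotype, E14.5 genotype, both stages, E14.5 over E13.5 in null-labelled pools, the same in controls, and interaction, the reported counts were 1, 0, 2, 0, 0 and 0. RLE size factors gave the same counts. DESeq2 gave 3, 1, 5, 2, 8 and 0. Without a filter on low counts they were 3, 3, 9, 5, 8 and 1, and there the prior degrees of freedom became infinite, against 6.31. With only the groups compared, E13.5 gave 2, E14.5 gave 0, null-labelled stages 0 and control stages 1. The replicate block gave 3, 2, 10, 5, 8 and 0. Without both null-labelled pools numbered 1 they were 1, 0, 1, 0, 3 and 0. Without all 4 libraries numbered 1, an alternative added after seeing the data, they were 3, 1, 3, 7, 11 and 1. Leaving out single libraries gave 0 to 2, 0, 2 to 5, 0 to 1, 0 to 9 and 0. Of 772 values of named members under these alternatives 666 kept direction and side of the threshold, 97 newly passed and 6 no longer passed. The other 3 were Itga8 between stages in null-labelled pools, which was -0.31 as reported but 0.33 without E13.5 null-labelled pool 1 (single libraries left out gave -0.762 to 0.334), 0.55 without both null-labelled pools numbered 1 and 0.55 without all 4 libraries numbered 1. The causes were not tested. Leaving out a library can leave 1 pool in a group, which is then assumed to vary like the others. Between stages the replicate number does not pair the samples by the check used, so the blocked counts of 5 and 8 rest on a shared number alone. Genes under about 1 CPM are limited by depth. For Itgam, the 68.7 percent of exon bases shared with Gm49368 may also limit the count.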
